A study of Mus musculus with 2 samples.

Results

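The genes that encode subunits of the transcription factor AP-1 were followed through mouse bone marrow stem and progenitor cells. They are Fos, Fosb, Fosl2, Jun, Junb, Jund, Atf3 and Maff, 8 of the 32285 genes counted, taken as a named family and not for any measured value. They were read in LSK cells from femur and tibia of young mice. LSK stands for absent lineage markers with Sca-1 and high Kit on the surface, a marrow fraction that contains haematopoietic stem cells and multipotent progenitors. The groups were wild-type (WT) mice and mice that the labels describe as IκB–, written IkBKO in the table of cells. Each condition was marked with its own hashing antibody before both conditions of a replicate were loaded together, as the labels describe, which gave 2 libraries with WT and IkBKO cells in each. Which IκB genes were altered, how many mice made a pool and in what order the conditions were sorted is not stated in the labels or files used here. No source says that the replicates came from separate animals, and the p-values therefore describe the spread among 4 pools, which may be technical.

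AP-1 is a dimer of basic leucine zipper proteins. Fos-family proteins (Fos, Fosb, Fosl2) pair with Jun-family proteins (Jun, Junb, Jund), and Jun proteins can also pair with each other or with Atf3; Maff is a small Maf protein that shares the zipper and lacks a transactivation domain. Fos, Fosb, Jun, Junb and Atf3 are immediate-early genes: growth factors, cytokines and stress switch them on within minutes through MAP kinases, without new protein synthesis, and their RNAs decay quickly. IκB proteins hold NF-κB, another dimeric factor of inflammatory signalling, in the cytoplasm.

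The stretch around the start is shown for Fos, Fosb, Jun and Junb, the immediate-early members that were lower in IkBKO cells in the values below, because such genes are known to be switched on through CRE and AP-1-like elements there. The windows are RefSeq sequence of build GRCm38.p6, 5′ to 3′ on the coding strand, from 250 bases before the annotated start to 50 after it. They lie at chr12:85473640-85473939 (plus strand, Fos), chr7:19309996-19310295 (minus strand, Fosb), chr4:95052173-95052472 (minus strand, Jun) and chr8:84978699-84978998 (minus strand, Junb). Capitals mark TGACG, the core of a CRE, and in Jun TGACATCA, its AP-1-like element.
Fos: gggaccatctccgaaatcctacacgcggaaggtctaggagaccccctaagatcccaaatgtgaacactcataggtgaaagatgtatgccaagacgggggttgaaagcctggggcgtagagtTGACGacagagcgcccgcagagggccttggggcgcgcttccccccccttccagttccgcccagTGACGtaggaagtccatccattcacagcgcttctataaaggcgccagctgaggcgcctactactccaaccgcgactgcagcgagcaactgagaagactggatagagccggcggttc
Fosb: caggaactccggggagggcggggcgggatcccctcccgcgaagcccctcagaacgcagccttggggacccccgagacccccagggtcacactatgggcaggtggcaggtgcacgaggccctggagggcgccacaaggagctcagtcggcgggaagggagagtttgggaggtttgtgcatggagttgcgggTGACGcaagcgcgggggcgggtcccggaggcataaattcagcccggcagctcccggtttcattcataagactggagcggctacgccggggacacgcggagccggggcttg
Jun: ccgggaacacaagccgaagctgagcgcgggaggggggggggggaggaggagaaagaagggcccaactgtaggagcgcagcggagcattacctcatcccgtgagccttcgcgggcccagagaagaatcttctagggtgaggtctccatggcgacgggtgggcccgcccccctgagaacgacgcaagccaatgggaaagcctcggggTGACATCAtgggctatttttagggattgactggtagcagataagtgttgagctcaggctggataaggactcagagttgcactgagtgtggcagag
Junb: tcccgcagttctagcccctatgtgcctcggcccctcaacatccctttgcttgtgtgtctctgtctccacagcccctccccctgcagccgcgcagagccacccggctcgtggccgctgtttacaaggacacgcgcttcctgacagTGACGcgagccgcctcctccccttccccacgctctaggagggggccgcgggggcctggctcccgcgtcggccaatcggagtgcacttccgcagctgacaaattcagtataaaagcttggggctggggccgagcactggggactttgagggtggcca

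All 8 members had a window. TGACG on either strand was found in 5 of them (Fos, Fosb, Junb, Atf3 and Maff), each counted if any of its windows held it (10 windows for the 8 genes); among the 32851 single windows of all genes the share was 20.8%, so the count and the share are not in the same unit. Fos held it at −129 and −66, counted from the annotated start as 0, Fosb at −60 and Junb at −106. The full palindrome TGACGTCA, which contains TGACG, was found in Maff alone among the members (1.79% of all windows), and TGACATCA in Jun, at −45, and Maff (3.62%). The letters TGANTCA, the AP-1 site proper, were in none of these windows (7.81% of all), and neither was the CArG box (1.63%). A κB site by its consensus was found in Fos, Fosb, Fosl2 and Maff (4.51%). These are matches of letters and carry no measurement of binding.

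Replicate 1 held 3721 WT and 3962 IkBKO cells that passed the authors' quality call, and replicate 2 held 4963 and 5383. The pools summed to between 42165571 and 62834572 UMIs (distinct captured RNA molecules). Cells carried a median of 9963 UMIs in WT and 13709 in IkBKO of replicate 1, and 6983 and 9641 in replicate 2. Both genes that define the sort were present: Kit stood at 118 to 272 CPM (UMIs per 1000000 UMIs of the pool) and Ly6a, the Sca-1 gene, at 52.4 to 117 CPM. Of the barcodes that passed, 39 occurred in both libraries. Marker lists of other cell types moved with the genotype: the 8 mature neutrophil markers summed to 1389 and 1190 CPM in WT and 189 and 209 in IkBKO pools, and the 9 monocyte and dendritic markers to 434 and 299 against 1684 and 1542, with no marker of these lists at 0.

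The first comparison asked how the AP-1 genes differed between IkBKO and WT over all LSK cells. All 3 Fos-family and all 3 Jun-family genes were lower in IkBKO cells, in both replicates, whereas no difference was detected for Atf3 and Maff. In CPM, the Fos and Fosb levels differed most, by 4.08 to 6.85 times, and the Jun-family levels by 1.56 to 2.55 times. Called lower in IkBKO were 6 of the 8 members, against 6.19% of the 14742 genes tested (edgeR quasi-likelihood test, Benjamini-Hochberg adjusted p of at most 0.05). Without the replicate term edgeR called 0 of the 14742 genes (1410 at an unadjusted p under 0.05), and DESeq2 with the term called 5 members, without Fosl2.

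**Figure D1:**
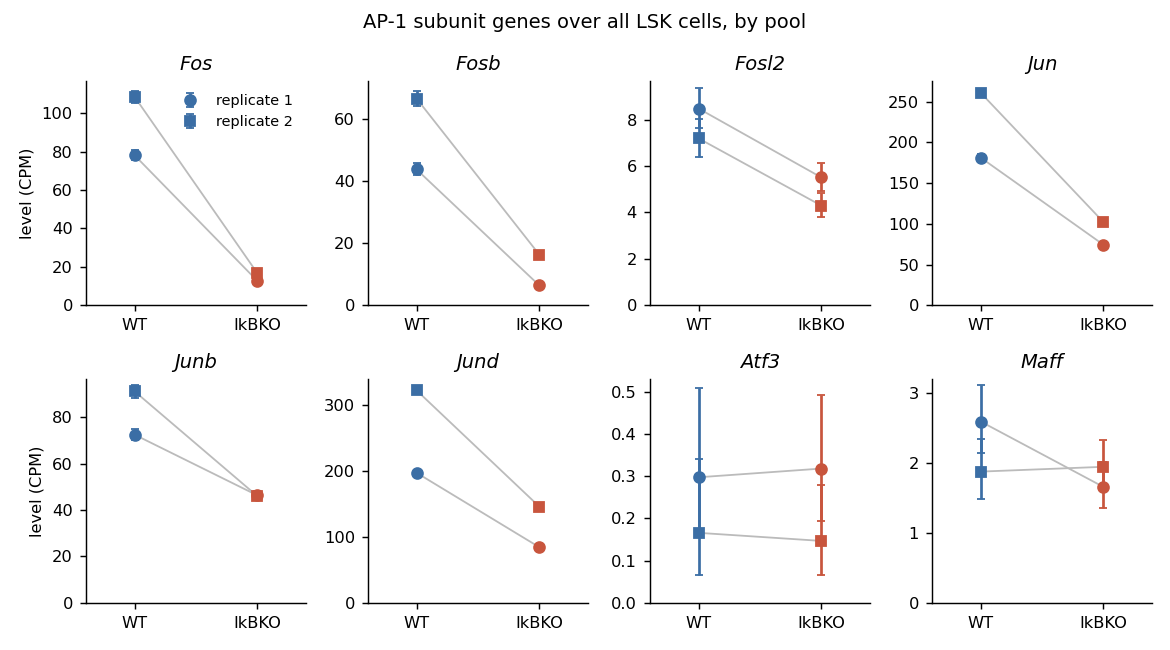
Level of each AP-1 subunit gene (CPM, linear axis from 0) in the 4 pools, WT in blue and IkBKO in red, circles for replicate 1 and squares for replicate 2; bars are exact 95% Poisson intervals and grey lines join the pools of 1 library. Every line of the Fos and Jun families falls from WT to IkBKO, for Fos from 78.1 and 108.5 to 12.7 and 16.8 CPM, whereas those of Atf3 and Maff do not run the same way in both libraries.

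Fos, the founding Fos protein and an immediate-early gene (ENSMUSG00000021250, mm10 chromosome 12, 85473890 to 85477273), reached 78.1 CPM in the WT pool of replicate 1 and 108.5 CPM in that of replicate 2, against 12.7 and 16.8 CPM in the IkBKO pools. The lower of the WT values was well above the higher of the IkBKO values. Groups of 2 pools that do not overlap, here and for the members below, carry little weight. An exact two-sided permutation test of them cannot go below 0.333, and the share of all genes without overlap was not counted. Counted per cell, Fos stood at 0.916 and 0.922 UMIs in WT against 0.202 and 0.192 in IkBKO. The log2 fold change was −2.56 ± 0.08 (SE; n = 2 pools per genotype; edgeR adjusted p = 4.3e-04). In the 4 fits that left out 1 pool, its values ran from −2.72 to −2.38. Here and within each gate, genotype fits without a pool also lacked the replicate term. Calls lost in them can therefore not be assigned to the missing pool alone. Fosb was called in the fits without either IkBKO pool and lost without the WT pool of replicate 1 (adjusted p = 0.14) or of replicate 2 (0.52). Jun, Junb, Jund and Fosl2 were called in none of the 4, where the smallest adjusted p was 0.056, for Jun without the IkBKO pool of replicate 2.

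Fosb encodes a Fos protein best known from neurons, where a short splice form accumulates (ENSMUSG00000003545, chromosome 7, 19302696 to 19310051). Its level was 43.8 and 66.7 CPM in the WT pools against 6.40 and 16.4 CPM in the IkBKO pools. The groups did not overlap, and the ratio was larger in replicate 1 (6.85) than in replicate 2 (4.08). The log2 fold change was −2.29 ± 0.18 (adjusted p = 0.0074).

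Fosl2 encodes Fra-2, a Fos relative with a delayed and longer-lasting response (ENSMUSG00000029135, chromosome 5, 32135801 to 32157842). It was sparse, with 8.47 and 7.19 CPM in the WT pools against 5.51 and 4.29 CPM in the IkBKO pools. The groups did not overlap, but the difference was small at −0.59 ± 0.14 (adjusted p = 0.047). Counted per cell it was 1.14 and 1.25 times higher in WT, and with UMIs scaled to the number of cells the change of −0.25 did not pass (edgeR adjusted p = 0.22).

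Jun encodes c-Jun, the main partner of Fos and a target of JNK kinases (ENSMUSG00000052684, chromosome 4, 95049034 to 95052222). It stood at 181 and 261 CPM in the WT pools against 74.3 and 102 CPM in the IkBKO pools. The groups did not overlap, and the ratio was alike in both libraries, at 2.44 and 2.55. Counted per cell, Jun stood at 2.13 and 2.22 UMIs in WT against 1.18 and 1.16 in IkBKO. The log2 fold change was −1.23 ± 0.09 (adjusted p = 0.0020).

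Junb, a Jun protein that restrains c-Jun and limits myeloid proliferation in mice (ENSMUSG00000052837, chromosome 8, 84974484 to 84978718), stood at 72.4 and 91.1 CPM in the WT pools against 46.3 and 46.1 CPM in the IkBKO pools. Jund, the Jun protein with the steadiest expression (ENSMUSG00000071076, chromosome 8, 70698949 to 70700616), stood at 197 and 322 CPM in the WT pools against 84.6 and 146 CPM in the IkBKO pools. Neither gene's groups overlapped. Counted per cell, Junb stood at 0.850 and 0.774 UMIs in WT against 0.735 and 0.524 in IkBKO. Jund stood at 2.32 and 2.74 UMIs per cell against 1.34 and 1.66. The log2 fold changes were −0.72 ± 0.11 for Junb (adjusted p = 0.020) and −1.09 ± 0.08 for Jund (adjusted p = 0.0025). Jun, Junb and Jund each overlap a counted gene on the other strand (Junos, Prdx2 and Gm11175), and the sources used here do not say whether counting was strand-aware.

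Atf3, a stress-induced member of the ATF family (ENSMUSG00000026628, chromosome 1, 191170296 to 191218039), was close to undetected, with 13 and 7 UMIs in the WT pools and 20 and 9 in the IkBKO pools. Its log2 fold change of 0.09 ± 0.46 (adjusted p = 0.91) leaves changes of either direction possible at this depth. Maff (ENSMUSG00000042622, chromosome 15, 79346621 to 79359076) stood at 2.59 and 1.87 CPM in the WT pools against 1.66 and 1.94 CPM in the IkBKO pools, with overlapping groups (−0.21 ± 0.26, adjusted p = 0.62).

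Depth, cell cycle RNA and cell makeup differed between the genotypes, and the members were therefore compared again in restricted sets of cells. These sets did not make the genotypes equal in makeup, and the part of each feature in the differences was not tested. Cells without a UMI of Mki67 or Top2a, genes of dividing cells, made up 48.8% and 59.7% of WT but 31.7% and 41.8% of IkBKO cells. The Fos difference, −2.56 over all LSK cells, was −2.52 in cells with 5000 to 10000 UMIs and −2.55 in cells without a Mki67 or Top2a UMI. It was −2.44 in cells outside the 5 marker gates described below, and −2.51 with the 3 restrictions together. The Jun difference was smaller in each set than over all LSK cells, at −0.78, −0.93, −0.86 and −0.71, and stayed called. Jund behaved alike (−0.65, −0.78, −0.89 and −0.79, all called). Junb was called in 1 of these 4 sets, the cells without a Mki67 or Top2a UMI (−0.50), and stood at −0.40, −0.33 and −0.25 in the other sets. Among cells outside the gates, the neutrophil markers summed to 3434 and 2198 CPM in the WT pools against 52.6 and 162 CPM in the IkBKO pools. Cells with at least 10 UMIs of those markers held at most 2.87% of the Fos UMIs of any pool, and without them Fos was at −2.57. These restrictions were chosen after the data were seen.

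From 5000 UMIs upward, the Fos and Jun levels also fell with depth within a genotype. In WT cells of replicate 1, Jun stood at 252 CPM in cells with 5000 to 10000 UMIs and at 127 CPM in cells with 20000 to 40000, and Fos at 102 and 60.6 CPM. In IkBKO cells of replicate 1, Jun went from 166 to 42.4 CPM and Fos from 16.5 to 11.8 CPM. The Jun levels of the genotypes lay closer together in the shallower cells (1.52 times in replicate 1 and 1.95 in replicate 2 for 5000 to 10000 UMIs) than over all cells, while the Fos levels differed by 6.16 and 5.50 times there, against 6.12 and 6.45 times over all cells.

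Most single cells held no UMI of the rarer members. Unthinned, 64.9% (exact binomial 95% interval 63.3 to 66.4) and 72.4% (71.2 to 73.7) of WT cells had no Fos UMI, against 85.5% (84.3 to 86.6) and 87.7% (86.8 to 88.6) of IkBKO cells. Since IkBKO cells were deeper, each cell was then thinned to 4000 UMIs, which left out 80 and 359 WT and 41 and 211 IkBKO cells. At that depth the share without Fos was 78.8% and 79.3% in WT and 95.2% and 94.2% in IkBKO. For Jun it was 59.3% and 53.6% against 74.2% and 69.8%, and for Jund 51.0% and 39.5% against 68.4% and 57.5%. For Junb the shares were 75.1% and 74.7% against 81.6% and 83.7%. Each of these differences ran the same way in both libraries. With 2 pools per genotype an exact two-sided permutation test cannot go below 0.333, so no test was made. Intervals cover counting error only, and no cell class known to lack these genes was at hand to measure free RNA.

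The 8 genes together were undetected in 25.1% and 22.7% of thinned WT cells and in 42.0% and 34.7% of thinned IkBKO cells. At least 3 summed UMIs were held by 38.5% and 47.1% of WT cells and by 15.4% and 22.3% of IkBKO cells. At least 10 summed UMIs were held by 4.20% and 9.64% of WT cells and by 0.18% and 0.48% of IkBKO cells. At equal depth, cells with 10 or more such UMIs were thus rarer in both IkBKO pools than in either WT pool.

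**Figure D2:**
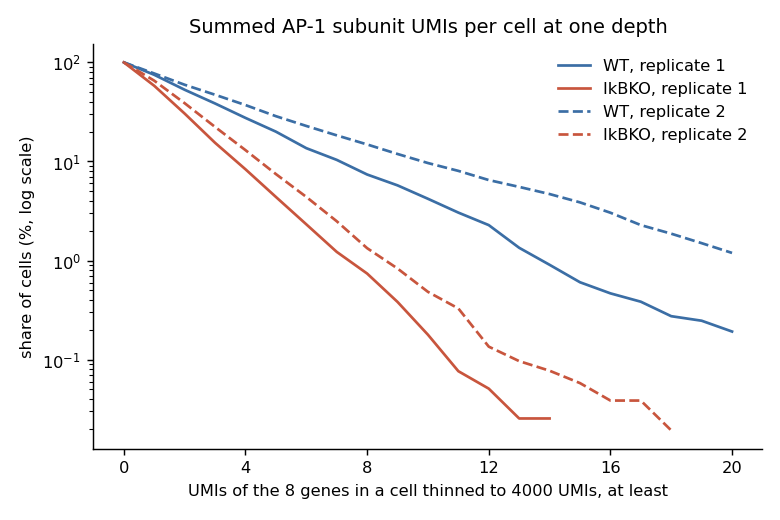
Share of cells (%, log axis) that held at least the number of summed UMIs of the 8 AP-1 subunit genes on the horizontal axis, each cell thinned to 4000 UMIs; solid lines are replicate 1 and dashed lines replicate 2, WT blue and IkBKO red. On this log axis, which shows ratios, the curves part from the start and the gap widens to the right, with 4.20% and 9.64% of WT but 0.18% and 0.48% of IkBKO cells at 10 or more UMIs.

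The members differed in how evenly cells shared them. The 10% of cells with most Fos held 59.1% and 70.6% of all Fos UMIs in WT, and the variance of Fos UMIs per cell was 4.02 and 5.59 times the mean. For Jund, the 10% of cells with most of it held 34.8% and 36.9%, and for Junb 45.6% and 52.7%. In IkBKO the 10% of cells with most Fos held 77.8% and 88.3% of its UMIs, a larger share than in WT. The variance-to-mean ratio of Fos was lower there, at 1.66 and 2.14, and that of Jun fell from 4.38 and 5.05 in WT to 2.39 and 2.72. Both measures depend on the mean UMIs per cell, which differed between the genotypes, so they do not show in which genotype cells shared Fos more evenly. These are descriptions of unthinned cells and carry no test.

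Cells with a Fos UMI also held UMIs of the partner genes more often than cells without one. Among thinned WT cells with a Fos UMI, 63.6% and 76.3% also had a Jun UMI, against 34.5% and 38.5% of those without Fos. In IkBKO the shares were 38.3% and 47.2% against 25.2% and 29.2%. Fosb was found in 28.3% and 39.6% of WT cells with Fos and in 10.8% and 11.2% of those without it, and in IkBKO in 11.2% and 12.4% against 3.3% and 6.2%. The excess ran the same way in all 4 pools for Fosb, Fosl2, Jun, Junb and Jund, but not for Atf3 or Maff.

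The second comparison asked whether the difference was found within cells primed for each lineage. Cells were gated by 1 gene each: Mecom, a transcription factor of stem cells (at least 1 UMI); Dntt, the terminal transferase of lymphoid progenitors (at least 3); Mpo, the myeloperoxidase of myeloid progenitors (at least 20); Pf4, platelet factor of the megakaryocyte line (at least 3); and Car1, carbonic anhydrase of erythroid progenitors (at least 5). A cell could fall in several gates. The Mecom gate held 1106 and 1761 WT and 738 and 1714 IkBKO cells, the Dntt gate 748 and 962 against 264 and 527, and the Pf4 gate 113 and 196 against 264 and 586. The Mpo gate held 339 and 40 WT and 1473 and 510 IkBKO cells, and the Car1 gate 52 and 9 against 253 and 224.

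In the Mecom gate 6 of 7 members tested were lower in IkBKO, against 4.38% of all genes tested there. Fos stood at 97.8 and 112.9 CPM in the WT pools against 14.4 and 18.8 CPM in the IkBKO pools (−2.62 ± 0.09, adjusted p = 3.3e-08). Fosb (64.6 and 74.0 against 14.9 and 22.9 CPM) fell by 1.83 ± 0.10 and Jun (234 and 290 against 105 and 123 CPM) by 1.16 ± 0.07 on the log2 scale. The fold changes of Jund (−0.83 ± 0.08), Junb (−0.73 ± 0.15, adjusted p = 0.036) and Fosl2 (−0.68 ± 0.19, adjusted p = 0.045) were smaller. DESeq2 called neither Junb nor Fosl2 there, the Junb call was lost without cells rich in neutrophil markers (adjusted p = 0.059), and both calls were lost without any 1 of the 4 pools. Jund was called without the WT pool of replicate 1 alone, and Jun was lost without the IkBKO pool of replicate 1; Maff did not pass (adjusted p = 0.995).

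In the Dntt gate all 6 members tested were lower, against 5.95% of genes, and DESeq2 called 5 of them, without Fosl2. Fos stood at 78.7 and 115.4 CPM in the WT pools against 10.5 and 17.0 CPM in the IkBKO pools (−2.73 ± 0.13, adjusted p = 2.3e-46). Jun, at 148 and 224 against 59.5 and 59.5 CPM, changed by −1.56 ± 0.10, and Junb, at 82.2 and 103 against 38.1 and 34.4 CPM, by −1.30 ± 0.11. Such small p-values rest on a spread that edgeR shared over all genes of the gate, since 4 pools leave 1 residual degree of freedom. Without the IkBKO pool of replicate 2, Fos alone was called; Fosl2 was lost without any 1 pool, Jund was kept without the WT pool of replicate 1 alone, and Fosb was lost without the IkBKO pool of replicate 1.

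In the Mpo gate 3 of 6 members tested were lower, against 0.138% of genes. Fos stood at 41.6 and 68.7 CPM in the WT pools against 12 and 14.2 CPM in the IkBKO pools (−1.97 ± 0.20, adjusted p = 0.0055). Fosb changed by −1.96 ± 0.30 (adjusted p = 0.036) and Jun by −1.09 ± 0.14 (adjusted p = 0.017). Jund (−0.70 ± 0.15, adjusted p = 0.16), Fosl2 (−0.60 ± 0.32) and Junb (−0.43 ± 0.16) did not pass. The 40 WT cells of replicate 2 in this gate carried neutrophil markers at 9042 CPM, against 298 to 834 CPM in the other pools; without cells rich in those markers the Fos change was −2.00 (adjusted p = 3.3e-05). Without the replicate term, or with UMIs scaled to cells, 1 member, Fos, was called in place of 3. Fos alone was also called without either WT pool or the IkBKO pool of replicate 1, and Jund joined the 3 without the IkBKO pool of replicate 2.

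In the Pf4 gate 4 of 5 members tested were lower, against 0.73% of genes. Fos stood at 46.8 and 79.8 CPM in the WT pools against 8.0 and 14.9 CPM in the IkBKO pools (−2.42 ± 0.19, adjusted p = 8.0e-11). Fosb (−1.82 ± 0.18), Jun (−0.98 ± 0.11) and Jund (−0.92 ± 0.10) were lower as well, whereas Junb, at 37.7 and 66.1 against 38.6 and 38.7 CPM, did not pass (−0.43 ± 0.17, adjusted p = 0.32). Without the replicate term no member was called (Fos −2.39, adjusted p = 0.24). Fos was called without any 1 of the pools, Fosb without the replicate 2 pools only, and Jun and Jund in none of these fits.

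In the Car1 gate only Fos was called of 5 members tested, against 1.67% of genes. It stood at 37.9 CPM in the 52 WT cells and 6.7 CPM in the 253 IkBKO cells of replicate 1. In replicate 2 it had no UMI in 9 WT cells, with an exact 95% upper limit of 18.9 CPM, and 7.8 CPM in IkBKO cells, so the libraries do not show the same order. The fit gave −1.85 ± 0.46 (adjusted p = 0.0079), and the call was lost without the WT pool of replicate 1 and without cells rich in neutrophil markers (−1.87, adjusted p = 0.057). Jun (−0.16 ± 0.22), Jund (−0.08 ± 0.19) and Junb (0.12 ± 0.28) did not pass. The 6 mature erythroid markers summed to 2496 and 1985 CPM in the WT pools against 23.1 and 135 CPM in the IkBKO pools of this gate; their part in the result was not tested.

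**Figure D3:**
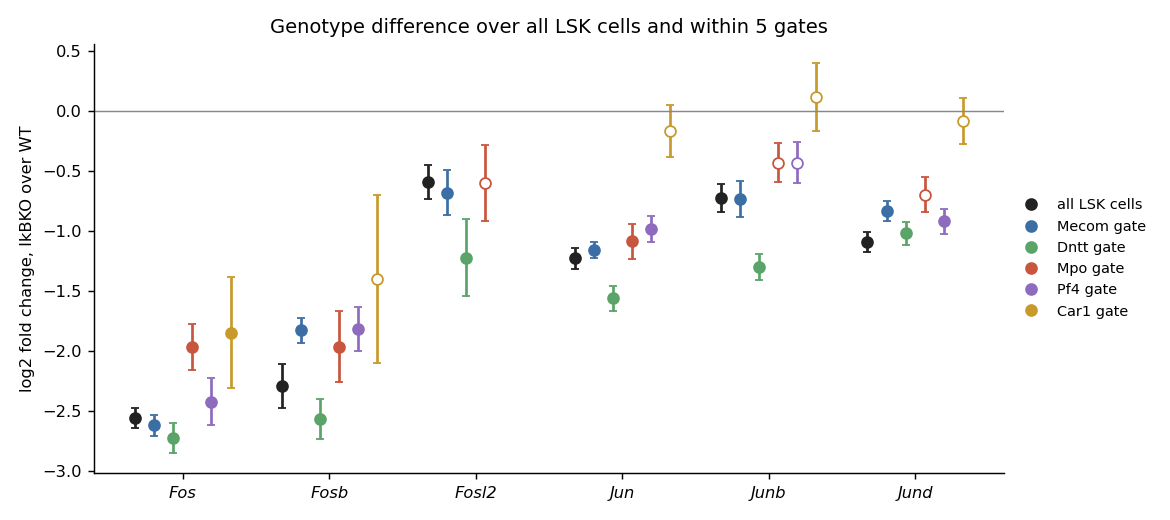
Log2 fold change of IkBKO over WT (points, bars ± SE from the edgeR fit) for 6 AP-1 subunit genes over all LSK cells and within each gate; filled points passed an adjusted p of 0.05, open points did not, and members that were too sparse for a gate's test are not drawn. Fos is filled in all 6 sets, between −2.73 and −1.85, whereas the Jun-family points of the Car1 gate lie near 0.

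Whether the genotype difference itself varied between gates was tested on cells in exactly 1 gate, as 20 pools. No member was called in any of the 4 contrasts against the Mecom gate, by edgeR or by DESeq2, nor in the edgeR test of all contrasts together. Genes called there made up 0.0486% (Dntt), 0.00809% (Mpo), 0% (Pf4) and 0.0809% (Car1) of the 12354 tested, and 0.0567% in the joint test. The difference of the Fos effect from that in the Mecom gate was −0.16 ± 0.39 for Dntt, 0.51 ± 0.39 for Mpo, 0.33 ± 0.50 for Pf4 and 0.34 ± 0.59 for Car1. These SEs leave differences between gates possible. Junb had the lowest p: its effect was larger in the Dntt gate by −0.65 ± 0.23 (edgeR adjusted p = 0.96) and smaller in the Car1 gate by 1.05 ± 0.32 (edgeR adjusted p = 0.36). Its joint adjusted p was 0.12 with all gates and 0.034 without the Car1 gate, an alternative chosen after the data were seen; it was 0.0087 and 0.0047 without the IkBKO pools of replicates 1 and 2. At an unadjusted p under 0.05 stood 2 members in the Dntt contrast (Fosb and Junb), 1 in the Car1 contrast and none in the others.

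The third comparison asked where in the WT hierarchy the AP-1 genes were high. In WT, the levels of Fos, Fosb, Jun and Jund were lower in the Mpo and Car1 gates than in the Mecom gate, and in the Dntt gate Fosb alone passed the test. Against the Mecom gate, 5 of 7 members were lower in the Mpo gate (background 21.7% of genes), 5 in the Car1 gate (13.8%), 2 in the Pf4 gate (1.76%) and 1 in the Dntt gate (6.66%), each by edgeR. In the Mpo gate these were Fosb (−1.90 ± 0.26), Jund (−1.66 ± 0.23), Jun (−1.14 ± 0.24), Fos (−0.80 ± 0.27) and Junb (−0.52 ± 0.18). In the Pf4 gate they were Fos (−1.20 ± 0.31, adjusted p = 0.046) and Junb (−0.88 ± 0.20, adjusted p = 0.016), while Fosb (−0.23 ± 0.24) and Jund (−0.19 ± 0.22) did not pass. Jun was not called there either, although it was lower in both libraries. In WT cells of exactly 1 gate it stood at 148 and 201 CPM in Pf4 against 250 and 293 CPM in Mecom. In the Dntt gate it was Fosb (−0.67 ± 0.19, adjusted p = 0.023), with Fos at −0.13 ± 0.23, Jun at −0.53 ± 0.22, Jund at −0.25 ± 0.20 and Junb at 0.28 ± 0.15.

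The 5 members lower in the Car1 gate were Fosb (−2.72 ± 0.48), Fos (−1.46 ± 0.41), Jun (−1.38 ± 0.30), Junb (−1.13 ± 0.27) and Jund (−0.95 ± 0.26). They rest on 48 WT cells in replicate 1 and 7 in replicate 2 once cells in several gates were left out, and without either IkBKO pool Fosb and Junb alone were called. In the Mpo gate Fos was called in 1 of the 4 fits without a pool, and in the Pf4 gate in none. The Dntt call of Fosb was lost without the WT pool of replicate 1. For Fos, over gates that may share cells, the order of WT levels was Mecom (97.8 and 112.9 CPM), Dntt (78.7 and 115.4), Pf4 (46.8 and 79.8), Mpo (41.6 and 68.7) and Car1 (37.9 and 0); each neighbouring pair overlapped except Mpo and Car1, and no neighbouring pair was tested beyond the contrasts with the Mecom gate. In cells of exactly 1 gate, on which the contrasts were fitted, Fos stood at 49.6 and 40.4 CPM in Pf4 and at 40.5 and 85.5 CPM in Mpo, so the order of these 2 gates depended on the shared cells. For Fosb, again with shared cells, the Pf4 gate (68.4 and 73.2 CPM) lay beside the Mecom gate (64.6 and 74.0), and the Mpo gate lay at 14.6 and 20.3 CPM. Jund showed the same placement, at 235 and 352 CPM in the Pf4 gate, 233 and 347 in the Mecom gate and 72.7 and 106 in the Mpo gate. In WT cells of exactly 1 gate, both genes were lower in Pf4 than in Mecom in each library, though neither contrast passed. Fosb stood at 55.8 and 62.8 against 70.3 and 73.8 CPM, and Jund at 212 and 289 against 250 and 349 CPM. Median UMIs per WT cell were 22335 and 22670 in the Mpo gate and 14653 and 23697 in the Car1 gate, against 9992 and 7286 in the Mecom gate, and the part of depth in these level differences was not tested.

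**Figure D4:**
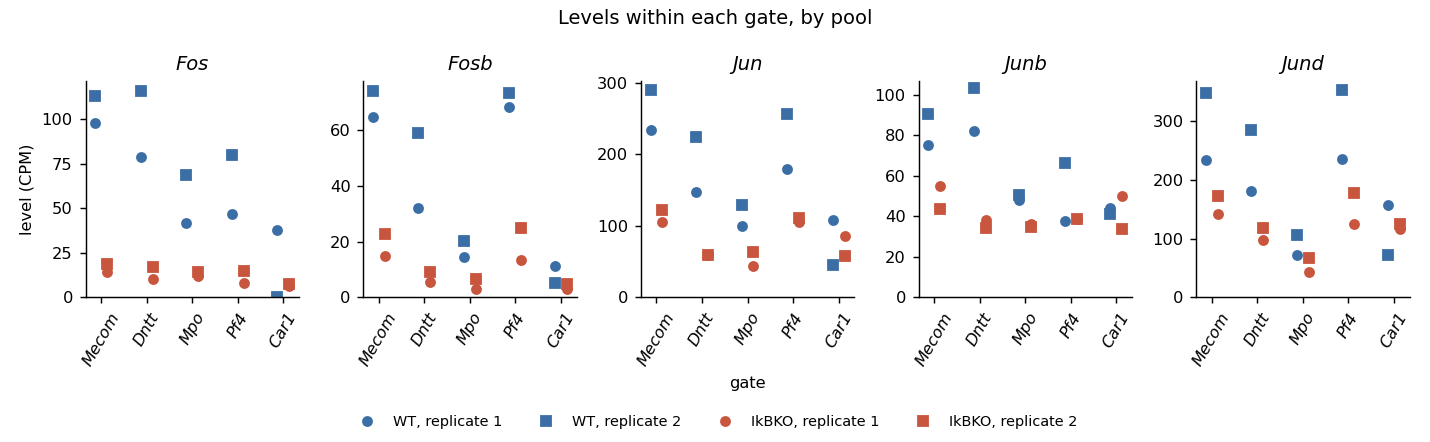
Level (CPM, linear axis from 0) of 5 AP-1 subunit genes in the cells of each gate, WT blue and IkBKO red, circles for replicate 1 and squares for replicate 2. The WT points lie above the IkBKO points for every gene in the Mecom, Dntt and Mpo gates, fall from the Mecom to the Mpo gate, and mix with the IkBKO points in the Car1 gate.

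Other genes of the pathway were read from lists by role. The median log2 fold change was −0.91 over the 8 members and −0.01 over all 14742 genes tested, with 7.13% of all genes called higher and 6.19% lower. Of 22 other AP-1 and bZIP partner genes, 1 was higher and 3 lower (median −0.13). Maf, a large Maf factor, stood at 3.02 and 5.74 CPM in the WT pools against 1.13 and 2.64 CPM in the IkBKO pools (−1.17 ± 0.20, adjusted p = 0.022). Batf2, whose product pairs with Jun proteins, was higher (1.17 ± 0.23, adjusted p = 0.029). Fosl1, which encodes Fra-1, was called lower, but it stood at 0.298 and 0.213 CPM in WT and under the level of 3 UMIs in both IkBKO pools, so no fold is given.

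Of 25 kinases and factors upstream of AP-1, 1 was lower and none higher, with a median of −0.02. It was Mef2a, a MADS-box factor that p38 kinase activates (−0.40 ± 0.08, adjusted p = 0.028). Mef2c (−0.34 ± 0.08, adjusted p = 0.050), Elk3 (−0.24 ± 0.07) and Map2k2 (0.26 ± 0.09), which encodes a kinase of ERK, did not pass.

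Of 8 dual-specificity phosphatases, which switch MAP kinases off and are themselves induced by them, 5 were lower and none higher (median −0.74). Dusp1 stood at 22.6 and 26.5 CPM in the WT pools against 9.01 and 12.4 CPM in the IkBKO pools (−1.12 ± 0.09, adjusted p = 0.0027). Dusp6, the phosphatase of ERK, changed by −1.11 ± 0.09, Dusp2 by −0.77 ± 0.09 and Dusp4 by −2.09 ± 0.43. Of 15 other immediate-early genes tested, 8 were lower and 1 higher (median −1.19). Zfp36, which encodes an RNA-decay factor, stood at 47.5 and 67.9 against 17.4 and 21.7 CPM (−1.46 ± 0.10). Egr1, a zinc-finger factor, changed by −1.60 ± 0.12, Btg2, an antiproliferative gene, by −1.19 ± 0.08, and Klf2 by −1.43 ± 0.13. The gene that was higher was Klf4 (1.25 ± 0.11, adjusted p = 0.0041), named here after its value was seen.

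Of 16 tested genes known as AP-1 targets in other tissues, 4 were higher, 2 lower and 10 not called, with a median of 0.28. The 2 lower were Hmox1 and Fosl1, which is in both lists. Vim, the intermediate filament vimentin, stood at 305 and 279 CPM in the WT pools against 550 and 380 CPM in the IkBKO pools (0.74 ± 0.13, adjusted p = 0.027). Lgals3, which encodes galectin-3, changed by 0.76 ± 0.09 and Gadd45b, which is also an NF-κB target, by 0.76 ± 0.11. Hmox1, haem oxygenase, was lower at 8.72 and 4.17 against 0.923 and 1.04 CPM (−2.54 ± 0.32, adjusted p = 0.012). The lists were described by counts alone and no test of a list was made.

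The genes most like the AP-1 members were ranked over the 20 pools of cells in exactly 1 gate, by Pearson correlation with the mean of the 7 tested members. Among 7985 genes with a mean of at least 10 CPM these were Wbp1 (0.874), Tmem42 (0.870), Nfic (0.866), Zfp36 (0.864) and Gcnt2 (0.862). Without the sparse Car1 pools they were Dusp1 (0.899), Wbp1 (0.897), D830025C05Rik (0.879), Plekhn1 (0.867) and Wwc2 (0.864), over 16 pools. Member by member and without the Car1 pools, Egr1 was most like Jun (0.933), Zfp36 most like Junb (0.870) and Malat1, a nuclear RNA, most like Jund (0.964). For Fos it was Bcl2l12 (0.920), for Fosb Wwc2 (0.957) and for Fosl2 Kctd20 (0.864). Over all 20 pools each of these members had another gene in this place. It was Itsn1 for Jun (0.906), D830025C05Rik for Junb (0.901) and Kmt2c for Jund (0.944). For Fos, Fosb and Fosl2 it was Glod4 (0.920), Nfic (0.896) and Arsb (0.877), so the single most alike gene depended on the pools used. The pools share libraries and depth, so these are descriptions.

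In replicate 1 the deposited tags for surface proteins allowed the same genes to be read along CD48, a protein absent from the most primitive stem cells and gained by progenitors. From the quintile of WT cells with least CD48 tag to the quintile with most, Fosb fell from 70.6 to 28.9 CPM, Jun from 240 to 138 and Jund from 272 to 146. Fos was at 82.4 and 64.6 CPM. In IkBKO cells Fosb went from 11.8 to 3.5 CPM, Jun from 99.9 to 64.4 and Jund from 134 to 66.0, while Fos stayed at 12.4 and 11.8 CPM. Median UMIs per cell rose along the same quintiles, from 7459 to 15240 in WT and from 8977 to 17084 in IkBKO, and the part of depth in the trend was not tested. This is 1 library, with no test.

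**Figure D5:**
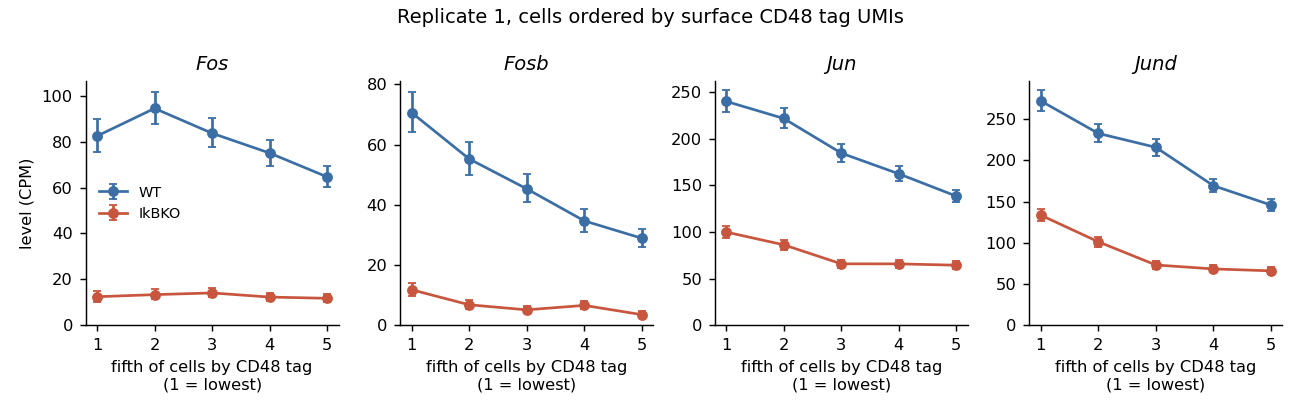
Level (CPM) of AP-1 subunit genes in quintiles of the replicate 1 cells ordered by CD48 tag counts, WT blue and IkBKO red, with exact 95% Poisson intervals. The WT lines lie above the IkBKO lines in every quintile, and WT Fosb falls from 70.6 to 28.9 CPM.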

How the data were processed

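LSK cells of 2 droplet libraries, each with WT and IkBKO cells, were analysed as 4 pools. The deposited values are UMI counts per gene and cell, not normalized by the authors; per the file headers they were made with Cell Ranger 6.0.0, and the submitters' processing notes name Cell Ranger 7.0, Seurat 4.3.0 and mm10. Cells with the authors' quality call were kept and no doublet caller was run here, since the hashing call was the authors'. Counts were summed per pool, over all cells and within 5 gates (Mecom at least 1 UMI, Dntt 3, Mpo 20, Pf4 3, Car1 5). Sums were tested with edgeR 4.0.16 in R 4.3.3 (TMM, filterByExpr, robust quasi-likelihood test, replicate as block), adjusted over all genes tested and called at an adjusted p of at most 0.05. The replicate number pairs pools because both genotypes of a number share a library, per the labels; deviations from the genotype means of paired pools correlated at 0.553 over 14605 genes. Gates were compared on cells in exactly 1 gate, with the pool as block. DESeq2 1.42.0, other scalings and filters, left-out pools and subsets of cells were alternatives. Genotype fits with a left-out pool had no replicate block. The fits were also run on counts simulated with the spread estimated from these same pools, which is no independent check of that spread. Pools held 42165571 to 62834572 UMIs; intervals are exact and cover counting error only. The members and lists were chosen with earlier results of these data known. Named beyond the members are the at most 4 genes of each list with the smallest p and, for likeness, the 5 genes most like the member mean and the 1 most like each member. One gene that this rule names is not reported here.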

Additional observations from a re-analysis of the deposited data

How the results depend on the processing

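With 4 pools and the replicate as block, 1 residual degree of freedom is left, so calls lean on the spread shared over genes; the number of mice, free RNA and strand in counting limit all values. Over all LSK cells 6 members were called, 0 without the replicate block and 1 to 2 without a pool. All genes called numbered 1964, against 0 without the block, 1566 with DESeq2, 3181 without a filter on low counts, 7278 with UMIs per cell and 25 to 136 without a pool. Without the replicate block 3 members were called in the Mecom gate, 1 in the Mpo gate and 0 in the Pf4 and Car1 gates; UMIs per cell left 1 in the Mpo gate, and 0 were left in the Car1 gate without neutrophil-marker cells. DESeq2 gave Fos no adjusted p in the Car1 gate. Without a pool, 2 to 4 members were called in the Mecom gate, 1 to 5 in Dntt, 1 to 4 in Mpo, 1 to 2 in Pf4 and 0 to 1 in Car1. Between gates the genotype effect differed for 2 members without a filter, 1 without the Car1 gate and 0 to 1 without a pool. For WT levels against the Mecom gate, the Dntt contrast had 2 members without a filter, 0 without the replicate block, 0 with DESeq2, 2 without the Car1 gate and 0 to 1 without a pool; Mpo had 3 and Pf4 0 without the block, and Mpo 3 to 4, Pf4 0 to 1 and Car1 2 to 5 without a pool. The share of cells with none of the 8 genes was 14.4 percentage points higher in IkBKO after thinning and 0.83 points higher without it.

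Direction turned only for values that were not called, except Fos in the Car1 gate, and the cause was not tested. Maff over all LSK cells was at 0.13 with UMIs per cell, 0.0037 thinned, 0.62 in cells of 5000 to 10000 UMIs, 0.44 without Mki67 or Top2a, 0.38 outside the gates and 0.70 with these together, and −0.49 to 0.098 without a pool. In the Mecom gate Maff was at 0.19 with UMIs per cell, 0.0011 without neutrophil-marker cells, 0.26 in exactly 1 gate, 0.25 with gates set per 10000 UMIs, 0.30 with 2 Mecom UMIs, and −0.34 to 0.29 without a pool. In the Car1 gate Jund was at 0.091 with DESeq2, 0.0038 in exactly 1 gate and 0.0053 with gates per 10000 UMIs, and Junb at −0.040 without the replicate block and −0.25 with UMIs per cell. Without a pool, Car1 gate values ran from −2.40 to 7.39 for Fos, −0.70 to 0.75 for Jun, −0.42 to 0.28 for Junb and −0.40 to 0.86 for Jund. Leaving out the WT pool of replicate 1 kept only 9 WT cells in that gate, with 0 Fos UMIs, so the size of a Fos value there has no meaning. Atf3 over all cells ran from −0.67 to 0.67. The Fos level in the Dntt gate ran from −0.34 to 0.10, and the difference of the Fos effect from −0.44 to 0.099 (Dntt) and −0.16 to 0.86 (Mpo). The Atf3 share without a UMI differed by 0.0075 points when thinned to 2000 UMIs.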

Other observations

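Barcodes that failed the authors' quality call, 1639 in replicate 1 and 14441 in replicate 2, held Fos at 43.6 and 41.2 CPM, Jun at 107 and 118 CPM and Jund at 134 and 172 CPM. These values, and those of Fosb and Junb, lay between the WT and the IkBKO level of their library. Fosl2 in replicate 1, at 10.5 CPM, and Atf3, at 0.83 and 0.47 CPM, lay above both genotypes. Their exact intervals overlapped those of WT, which does not test the difference, and no test was made. Maff, at 1.13 and 1.67 CPM, lay below both genotypes. In the quintiles of replicate 1 cells by Flt3 tag, Fos was at 76.8 to 79.4 CPM in WT.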
